A study of Caenorhabditis elegans with 4 samples.

Results

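The X chromosome of C. elegans carried 668 of the 3936 ELT-3 binding peaks mapped in embryos by chromatin immunoprecipitation with sequencing (ChIP-seq). They are all rows of the combined peak list whose chromosome is X, so the choice used no measured value. The list of ChIP replicate 1 held 296 X peaks of 1667, and that of replicate 2 held 670 of 3939. The comparison set was the 2580 combined peaks on chromosomes II to V.

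Embryos of strain OP75 were used throughout, in a population that mixed both sexes, males and hermaphrodites, and was grown at 20 °C. The strain carries the allele unc-119 (ed3) on chromosome III and the bombarded transgene wgIs75, in which elt-3 is fused to TY1::EGFP::FLAG and which also holds unc-119 (+). All 4 libraries, 2 from ChIP with an anti-GFP antibody and 2 from input DNA, share this genotype, and none comes from a strain without the transgene. The tagged protein is made beside that of the worm's own elt-3, a gene that RefSeq places on X. Whole embryos were assayed, so a peak does not say in which cells, at which embryonic age or in which sex the protein was bound.

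ELT-3 is a GATA factor, a zinc finger protein of the family named after the DNA letters it recognises. In the worm embryo it is known from the major epidermal cells, the hypodermis, where it acts downstream of the GATA factor ELT-1 on genes of the epidermis and cuticle. Hermaphrodites carry a pair of X chromosomes and males a single X, and a dosage compensation complex lowers transcription from both X chromosomes of hermaphrodites. On worm autosomes the central regions recombine less than the arms, a contrast that is weaker on X.

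Each deposited peak has a position on the WormBase WS180 assembly and 1 number that the authors call qValue. That number was matched to the upper tail of a binomial distribution with probability 0.5, which returns a number of ChIP tags (reads) and of scaled control tags. Every X peak in the 3 lists matched exactly 1 such pair. The number is called the peak probability below, the tag ratio is ChIP tags over control tags, and both rest on this reading. Total reads per library are unknown. The 95% exact (Clopper-Pearson) intervals of a ratio take ChIP tags and scaled control tags as plain counts. They cover counting error only, since tags are not independent molecules.

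The 3 lists were not independent measurements. Of the 668 combined X peaks, 434 (65.0%) had the same start and end as a replicate 2 peak, and all 434 carried the same tag numbers there. None had the interval of a replicate 1 peak. At 73 X positions where the replicate lists matched within 25 bp at both ends, the split of ChIP tags between them varied less than binomial sampling gives, with a chi-square of 0.388 per degree of freedom. That of control tags varied far less, at 0.0349. On II to V the same quantities were 0.398 and 0.0271 over 322 pairs. The lists were therefore not averaged, and values are given for the combined list with those of replicate 1 beside them.

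The X peaks with the smallest probabilities were spread over the chromosome, and replicate 1 placed each of them among its own first peaks. The 15 first X peaks found in both replicates lay between ranks 1 and 28 of the combined list and no lower than rank 35 of replicate 1. With X cut into 3 parts of equal length, 4 of the 15 lay in the left part, 5 in the central and 6 in the right. They made up 2.25% of the X peaks and held 8.83% of the ChIP tags in X peaks.

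First of all peaks was X 16929321 to 16931884, near the right end, where 785 ChIP tags stood against 159 control tags. In replicate 1 a shorter interval of 1167 bp, in place of 2564 bp, held 220 against 38 tags. The combined tag ratio was 4.94 (95% interval 4.16 to 5.89) and that of replicate 1 was 5.79 (4.09 to 8.40), with overlapping intervals. It ranked first with a ratio below that of 11 of the 14 peaks that followed.

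Among the 15 peaks, the highest ratio belonged to X 11093649 to 11094461. It came from 391 combined ChIP tags against 49, and from 237 against 29 in replicate 1. The combined ratio was 7.98 (5.92 to 11.0) and the replicate 1 ratio 8.17 (5.54 to 12.5). X 14525335 to 14526578 followed with 463 against 65 tags, a combined ratio of 7.12 (5.48 to 9.38) and a replicate 1 ratio of 7.22 (5.08 to 10.5). A narrower peak of 445 bp toward the left end, X 806482 to 806926, reached 7.03 (4.75 to 10.8) from 204 against 29 tags, and 6.84 (4.21 to 11.7) in replicate 1. These 3 peaks did not differ in ratio beyond their counting intervals.

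Ratios close to these were found at 4 more of the 15. X 13700511 to 13701158 had 331 against 48 tags and a combined ratio of 6.90 (5.08 to 9.54), with 6.89 (4.59 to 10.7) in replicate 1. X 9465476 to 9466175 had 6.85 (5.12 to 9.32) and, in replicate 1, 6.06 (4.20 to 8.99). X 6296071 to 6296882 had 6.79 (5.13 to 9.13) and 6.51 (4.59 to 9.47), and X 2996411 to 2997466 had 6.38 (4.96 to 8.31) and 6.55 (4.81 to 9.11). All 4 pairs of intervals overlapped.

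In the middle of the order stood peaks with 342, 299 and 266 combined ChIP tags. X 4208653 to 4209668 had a combined ratio of 6.45 (4.82 to 8.79), while replicate 1 gave 7.32 (4.80 to 11.6). For X 11937073 to 11937801 the corresponding values were 5.64 (4.20 to 7.71) and 6.34 (4.27 to 9.74). For X 16056095 to 16056781 they were 6.19 (4.47 to 8.75) and 5.52 (3.70 to 8.50). Replicate 1 was higher at the former 2 and lower at the last, always within the intervals.

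The last 3 of the 15 had lower ratios. They were 4.24 (3.24 to 5.60) at X 12362642 to 12363422, 4.16 (3.19 to 5.48) at X 6741519 to 6742400 and 3.45 (2.75 to 4.35) at X 4662288 to 4663629. The upper limit at the last of these was below the lower limit of 10 of the other 14 peaks. The intervals of the 15 were thus not all overlapping, and whether the ratios differ was not tested. Over all 15, replicate 1 gave the higher ratio at 7, and the intervals of the lists overlapped at all 15. The lists were not independent, so this overlap does not measure agreement between separate measurements. All 15 had fewer control tags per kb, from 52.2 to 87.1, than the median X peak with 102.6. Control tags enter the probability by which the 15 were chosen, so this is a description. Among combined X peaks of 200 to under 400 ChIP tags the median was 86.5.

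**Figure D1:**
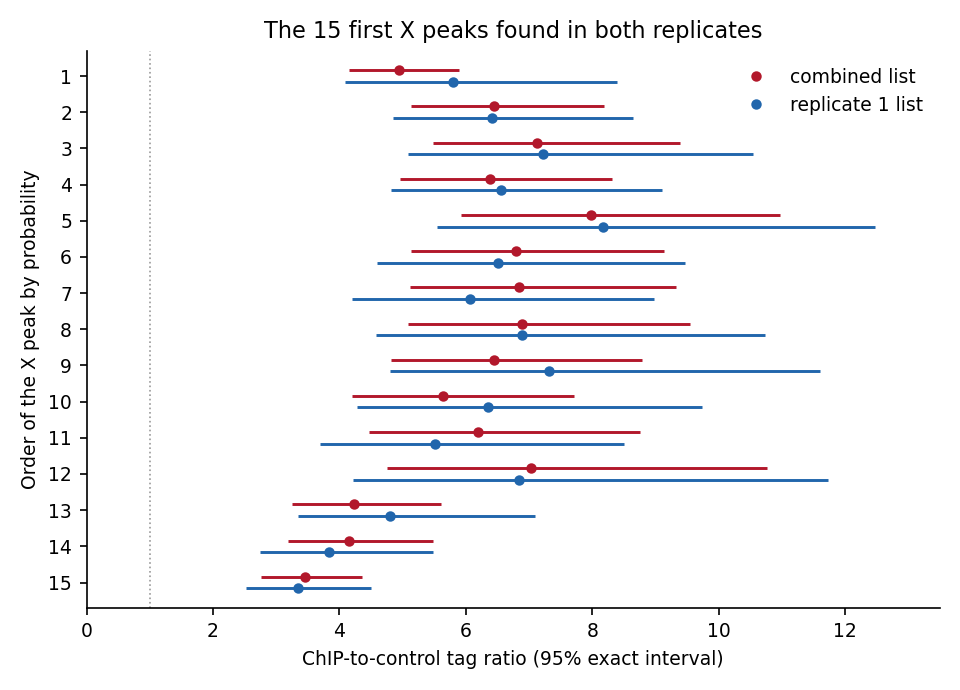
Tag ratio of the 15 first X peaks found in both replicates, in order of probability from top to bottom, in the combined list (red) and in the replicate 1 list (blue). Lines are 95% exact intervals for counting error and the dotted line marks a ratio of 1. Combined ratios run from 3.45 to 7.98 and the intervals of the lists overlap at every peak. The lists are not independent.

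Of the 216 combined X peaks with 100 ChIP tags or more, the 8 of highest ratio were all among these 15. Their ratios ran from 6.44 (5.12 to 8.18), at X 8035640 to 8036967, to the 7.98 given above. Rank and ratio follow from the same tag numbers, so this is a description.

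ChIP tags per peak were more numerous on X than on II to V. The median X peak held 76 ChIP tags, while the medians of II, III, IV and V were 70, 65, 65 and 66. On the log2 scale the mean was 6.34 on X against 6.10 on II to V, a difference of 0.24 (95% interval 0.14 to 0.34, adjusted p = 0.000501, n = 18 X and 69 II to V bins). This test and those that follow are a linear model across all peaks with errors clustered in 1 Mb bins, with Benjamini-Hochberg adjustment over 11 measures. The X mean was above that of each of II to V, and below the 6.41 of chromosome I. In replicate 1 the difference was 0.31 (0.21 to 0.40, adjusted p = 3.45e-05, n = 18 and 69 bins).

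The share of X was higher in classes with more tags. Over all classes the combined list had 668 peaks on X and 2580 on II to V, and replicate 1 had 296 and 1113. Of all X and II to V peaks, X held 14.7% (95% Wilson interval 12.3 to 17.3) of those under 50 ChIP tags and 19.6% (17.8 to 21.5) of those with 50 or more and under 100. It held 26.5% (23.3 to 30.03) of those with at least 100 and under 200, and 42.4% (32.4 to 53.0) of those with at least 200 and under 400. Of the 14 peaks with 400 tags or more, 8 were on X, 3 of them in the stretch of dense control tags described below. In replicate 1 the first 4 of these shares were 14.9%, 22.7%, 30.3% and 66.7%, the last of them 14 X peaks of 21.

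Peaks of 200 ChIP tags or more were 44 of 668 on X (6.59%) and 55 of 2580 on II to V (2.13%). Chromosome II had 2.46%, III had 2.08%, IV had 1.79% and V had 2.19%. X lay above II to V by 4.46 percentage points (2.17 to 6.74, adjusted p = 0.00120, n = 18 and 69 bins, adjusted over 10 contrasts chosen after the values were seen). In replicate 1 it was 15 of 296 peaks (5.07%) on X against 7 of 1113 (0.629%), a difference of 4.44 points (1.99 to 6.88, adjusted p = 0.00172, n = 18 and 69 bins). Chromosome I was not in these shares or contrasts. Its upper quartile of ChIP tags was 120 against 112 on X, and 99.5 against 88 in replicate 1. The 44 X peaks include those of 885, 722, 624 and 223 tags in the stretch of dense control tags described below. The 15 of replicate 1 include its peaks of 533, 391 and 388 tags there. Neither contrast is given without them.

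**Figure D2:**
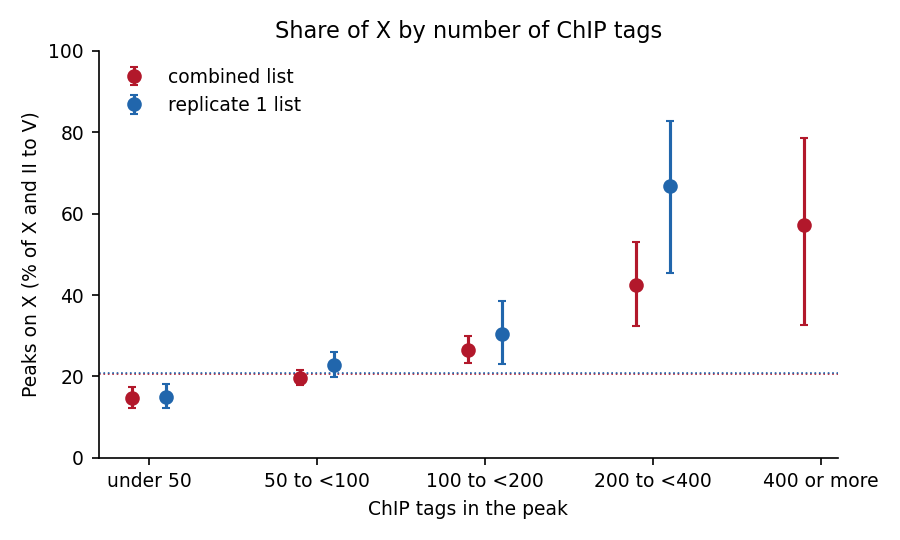
Share of X among X and II to V peaks by the number of ChIP tags in the peak, for the combined list (red) and the replicate 1 list (blue), with 95% Wilson intervals; classes of under 10 peaks are not drawn. Dotted lines mark the share of X over all classes. Chromosome I is not included. The share in the combined list rises from 14.7% under 50 tags to 42.4% at 200 or more and under 400 tags.

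The tag ratio was lower on X than on II to V. The median X ratio was 2.68, while II, III, IV and V had 2.85, 3.00, 3.00 and 2.90, and chromosome I had 2.59. Mean log2 ratios were 1.51 on X and 1.63 on II to V, a difference of -0.12 (-0.17 to -0.07), which is 0.919 times the ratio of II to V (adjusted p = 0.000501, n = 18 and 69 bins). In replicate 1 the difference was -0.14 (-0.19 to -0.08, adjusted p = 0.000504, n = 18 and 69 bins). With control tags as a covariate it was -0.01 (-0.06 to 0.03, adjusted p = 0.736, n = 18 and 69 bins), so the call was lost. Control tags are part of the ratio and of the rule by which a peak is called, and how they were scaled on each chromosome is not known here.

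Within classes of like ChIP tags the lower ratio passed the test in the middle of the range. From 50 to under 100 tags the median ratio was 2.52 on X and 2.74 on II to V, a log2 difference of -0.12 (-0.16 to -0.07, adjusted p = 0.000208, n = 18 and 69 bins). From 100 to under 200 tags it was 2.60 against 2.89, a log2 difference of -0.17 (-0.25 to -0.09, adjusted p = 0.000660, n = 18 and 67 bins). Under 50 tags the medians were 3.56 and 3.55, and the log2 difference of -0.03 (-0.11 to 0.06) did not pass. At 200 tags or more the log2 difference was 0.14 (-0.14 to 0.43, adjusted p = 0.328, n = 17 and 35 bins). Its X peaks include those of 885, 722, 624 and 223 tags in the stretch of dense control tags described below. Their ratios were 1.80, 1.43, 1.46 and 1.63, and the contrast is not given without them. In replicate 1, where no class was tested, the median ratio was 3.50 on X against 3.79 on II to V under 50 tags, 2.82 against 3.00 from 50 to under 100 and 2.75 against 3.41 from 100 to under 200. From 200 to under 400 tags it was 4.87 over 14 X peaks against 2.47 over 7 II to V peaks, while the combined list had 3.37 against 3.20 in that class. Those 7 II to V peaks had a median of 134.2 control tags per kb, against 51.8 for the 14 X peaks. From 100 to under 200 tags the replicate 1 medians were 60.3 on II to V and 69.9 on X. The 4 combined differences are among the 10 contrasts chosen after the values were seen, and whether the classes differ from each other was not tested.

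Scaled control tags were denser under X peaks than under those of II to V. How they were scaled, and whether by the same factor on every chromosome, is not known here. The median was 102.6 control tags per kb on X, while II, III, IV and V had 93.6, 93.9, 89.5 and 92.3. The log2 difference was 0.16 (0.07 to 0.25, adjusted p = 0.00671, n = 18 and 69 bins), and 0.18 (0.10 to 0.26) in replicate 1. Among peaks of 200 bp or more it was 0.17 (0.10 to 0.23), one of the 10 added contrasts. ChIP tags per kb did not differ past the threshold, with a log2 difference of 0.04 (-0.05 to 0.13). Chromosome I had a median of 114.0 control tags per kb, and with it added to II to V the log2 difference in control density was 0.09 (adjusted p = 0.128, n = 18 X bins).

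X peaks were also wider in the main comparison. The median was 293 bp on X, while II, III, IV and V had 272, 252.5, 265 and 254.5 bp. The log2 difference in width was 0.20 (0.05 to 0.35, adjusted p = 0.0308, n = 18 and 69 bins), and 0.26 (0.15 to 0.38, adjusted p = 0.000532) in replicate 1. The combined value missed the threshold without chromosome III (adjusted p = 0.0615, n = 18 X bins), without IV (adjusted p = 0.0565) or with I added (adjusted p = 0.0843). With ChIP tags as a covariate the log2 difference turned to -0.14 (-0.22 to -0.06, adjusted p = 0.00544, n = 18 and 69 bins). By class of ChIP tags the median width was 98 bp on X against 129.5 on II to V under 50 tags, 264.5 against 268 from 50 to under 100 and 486 against 480 from 100 to under 200. In replicate 1 these medians were 195 against 199, 345 against 333 and 603 against 594 bp, so the direction was not the same in every class.

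**Figure D3:**
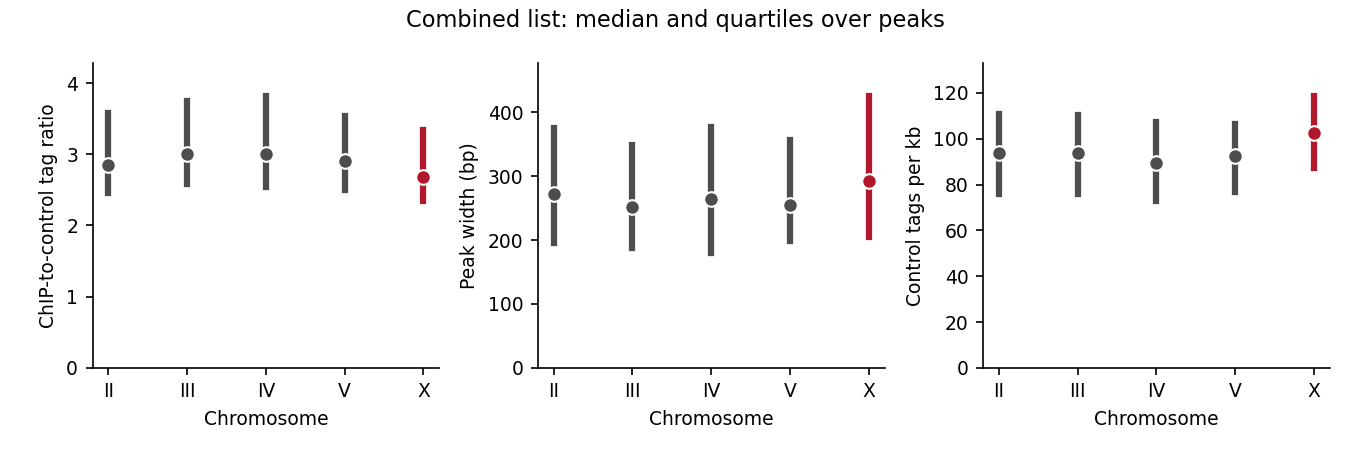
Tag ratio, peak width in bp and control tags per kb of combined peaks on chromosomes II to V (grey) and X (red). Points are medians over peaks and bars run from the lower to the upper quartile. X has the lowest median ratio (2.68), the largest median width (293 bp) and the highest median control density (102.6 per kb) of the 5 chromosomes drawn. Chromosome I is not drawn, and its medians were a ratio of 2.59, 287 bp and 114.0 control tags per kb.

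The mean of minus log10 probability was higher on X, while the medians of the probability were close. The median probability was 5.60e-06 on X and 5.35e-06 on II to V. The mean of minus log10 probability was 7.82 on X and 6.77 on II to V, a difference of 1.05 (0.24 to 1.87, adjusted p = 0.0308, n = 18 and 69 bins), and 1.32 (0.64 to 1.99) in replicate 1. Of X and II to V peaks, X held 23.6% (20.5 to 27.0) in the best of 5 rank groups and from 18.3% to 21.4% in the other 4. The interval of the best group includes the share of X over all groups, which held 668 X and 2580 II to V peaks. An excess of X in that group was therefore not shown. The difference in means missed the threshold without chromosome IV (0.99, adjusted p = 0.0563, n = 18 X bins) and with I added (0.98, adjusted p = 0.0762).

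The 4 highest control densities among X peaks of 200 bp or more lay in 1 stretch, which was picked out after the values were seen. Within the 33884 bp from X 13915732 to 13949615 there were 5 combined peaks, and their control density ran from 160.0 to 195.3 tags per kb. The median of the other 511 X peaks of 200 bp or more was 100.0 control tags per kb, and the highest was 167.6. X 13936403 to 13938916 had 885 ChIP tags, the most of any X peak, against 491 control tags. X 13915732 to 13918484, the widest X peak with 2753 bp, had 722 against 506, and X 13947251 to 13949615 had 624 against 428.

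Tag ratios in this stretch were low. The 3 wide peaks had ratios of 1.80 (1.61 to 2.02), 1.43 (1.27 to 1.60) and 1.46 (1.29 to 1.65) in that order. The smaller ones, X 13920264 to 13921119 and X 13941031 to 13941605, had 1.63 (1.31 to 2.03) and 1.69 (1.31 to 2.18). Of the 663 X peaks outside the stretch, 8 had a ratio at or below 1.80. The 5 X peaks outside it with 400 ChIP tags or more had ratios of 2.53 to 7.12, all above those of the stretch.

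Replicate 1 held 4 of the 5 peaks, with 113 to 134 control tags per kb against a median of 68.5 for its other 245 X peaks of 200 bp or more. That is 1.66 to 1.96 times the median, and in the combined list it was 1.60 to 1.95 times. The control tags of the replicate lists were nearly proportional, so these are not independent observations. The most ChIP tags of any X peak in replicate 1 were again here, at X 13936374 to 13938599, with 533 against 297 and a ratio of 1.79 (1.55 to 2.08).

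No gene was assigned to the stretch, because no WS180 annotation was used here. The transgene adds copies of elt-3, an X gene, to the DNA of every library, and whether the stretch is the region it carries was not tested. Whether the tags of these 5 peaks reflect binding or added DNA cannot be told apart here. Peaks of 200 bp or more with at least 160.0 control tags per kb numbered 7 of 516 on X, 0 of 474 on II, 4 of 456 on III, 1 of 425 on IV, 2 of 472 on V and 49 of 523 on I. The highest single values were 289.9 on III and 268.0 on IV, above the 195.3 of X. Without the 5 peaks of the stretch the X minus II to V difference was 0.15 in log2 control density (adjusted p = 0.00873, n = 18 X bins) and 0.18 in log2 width (adjusted p = 0.0515), so the width call was lost. Outside the stretch, the widest X peaks were the first-ranked one and X 16270342 to 16271951, which spans 1610 bp, with 294 against 165 tags, a ratio of 1.78 (1.47 to 2.17) and 102.5 control tags per kb.

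**Figure D4:**
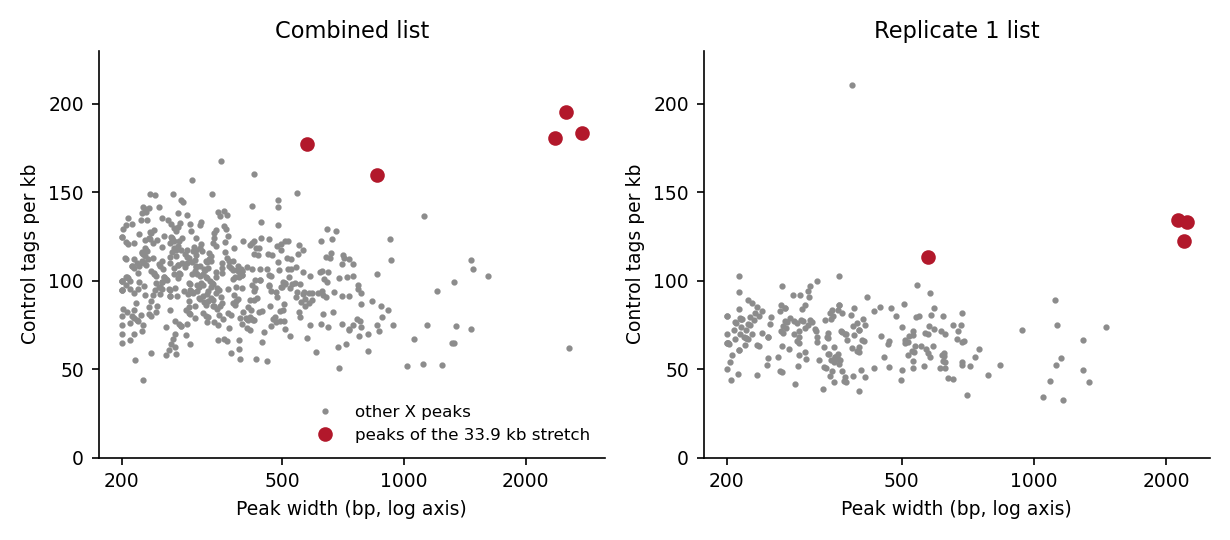
Control tags per kb against peak width (log axis) for X peaks of 200 bp or more, in the combined list (left) and the replicate 1 list (right). Red points are the peaks of the 33884 bp stretch and grey points are all other X peaks. In the combined list the 5 red points lie between 160.0 and 195.3 per kb, and 3 of them are over 2000 bp wide.

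Most X peaks of replicate 1 had a partner in replicate 2, and fewer the other way. Of 296 replicate 1 X peaks, 289 (97.6%, Wilson 95.2 to 98.8) overlapped a replicate 2 peak by at least 1 bp, against a background of 97.8% over all chromosomes. Of 670 replicate 2 X peaks, 284 (42.4%, 38.7 to 46.2) overlapped a replicate 1 peak, against 40.9%. Of the 668 combined X peaks, 284 (42.5%, 38.8 to 46.3) overlapped a peak of both replicates, against a background of 40.9%. A further 375 overlapped replicate 2 alone, 1 replicate 1 alone and 8 neither. X differed from II to V by 0.85 percentage points (-4.97 to 6.67, adjusted p = 0.931, n = 18 and 69 bins) in the share found in both.

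Rank went with being found in both replicates on X and on II to V. From the best to the last of 5 rank groups the X share found in both was 98.0%, 66.9%, 26.3%, 10.2% and 6.43%, and the II to V share was 97.6%, 65.6%, 33.1%, 11.5% and 3.90%. The Wilson intervals of X and II to V overlapped in all 5 groups. X peaks found in both had medians of 408.5 bp and 113.5 ChIP tags, and the 383 not found in replicate 1 had 237 bp and 64 tags. Of the 668 combined X peaks, 659 overlapped a replicate 2 peak, so found in both meant in effect found in replicate 1. Rank and the calls of replicate 1 come from lists that were not independent, and a wider peak is more easily overlapped. These values are therefore a description and do not measure reproducibility.

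The best-ranked X peak without a partner in replicate 1 was X 11791229 to 11792083, at rank 536, with 160 ChIP tags against 64 and a ratio of 2.50 (1.86 to 3.395). A higher ratio of 4.71 (2.62 to 9.09) belonged to X 13264576 to 13264812, from 66 against 14 tags. At the other end, X 11887070 to 11887611 was found in both replicates at rank 3669, with 133 against 81 tags and a ratio of 1.64 (1.24 to 2.19). Its replicate 1 ratio was 1.94 (1.38 to 2.76).

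There were 7 X peaks of replicate 1 with no replicate 2 partner, and they ranked from 1105 to 1659. Of these, 4 spanned 53 bp or less, such as X 13023130 to 13023163 with 26 ChIP tags against 5. Most tags among the 7 were at X 293242 to 293626, with 134 against 81, a ratio of 1.65 (1.25 to 2.21) and 210.4 control tags per kb, the highest among replicate 1 X peaks of 200 bp or more. The combined list had a peak overlapping 2 of the 7. The 8 combined X peaks in neither replicate list included X 5129481 to 5129654, with 49 against 18 tags, and X 7995495 to 7995770, with 69 against 33.

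Where the replicates overlapped, their X ratios were close. Among the 289 pairs on X the ratio was higher in replicate 1 at 157, higher in replicate 2 at 129 and equal at 3. The median log2 difference, replicate 1 minus replicate 2, was 0.02, with quartiles of -0.07 and 0.13, and 0 pairs had 95% intervals that were apart. At matching intervals the lists split tags with less than binomial variance, as given above. Overlap of these intervals therefore does not measure agreement between independent replicates. Replicate 1 held 40.4% of the ChIP tags at the 73 matching X intervals (5349 against 7884 in replicate 2) and 40.4% at the 322 of II to V. The difference was 0.0065 percentage points (-0.780 to 0.793), so a difference between X and II to V in how tags fell to the lists was not detectable.

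Along the chromosome, X peaks were spread almost equally over its left, central and right parts of equal length, which held 221, 226 and 221. In 10 equal parts X held from 7.78% to 12.4% of its peaks, and II to V together from 6.12% to 12.8%. The central of 3 parts held 33.8% of X peaks and 40.3% of II to V peaks, from 38.9% to 43.75% by chromosome. The difference of -6.48 percentage points is given as a description. Nearly all 1 Mb bins lie wholly inside or outside the central part, so the model with clustered errors cannot test this share (its interval was -34.0 to 21.1), and Fisher's exact test (adjusted p = 0.00588) takes neighbouring peaks as independent.

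Between 27 and 54 combined peaks lay in each full 1 Mb bin of X, and 19 in the incomplete bin at its right end. The most were between 5 and 6 Mb, where 14 of 54 were found in both replicates. Between 14 and 15 Mb it was 27 of 44. In the right of the 3 parts 48.4% (41.9 to 55.0) of peaks were found in both, against 38.9% (32.7 to 45.5) in the left and 40.3% (34.1 to 46.8) in the central part, with intervals that overlapped. Median ratios were 2.67, 2.60 and 2.75 from left to right.

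**Figure D5:**
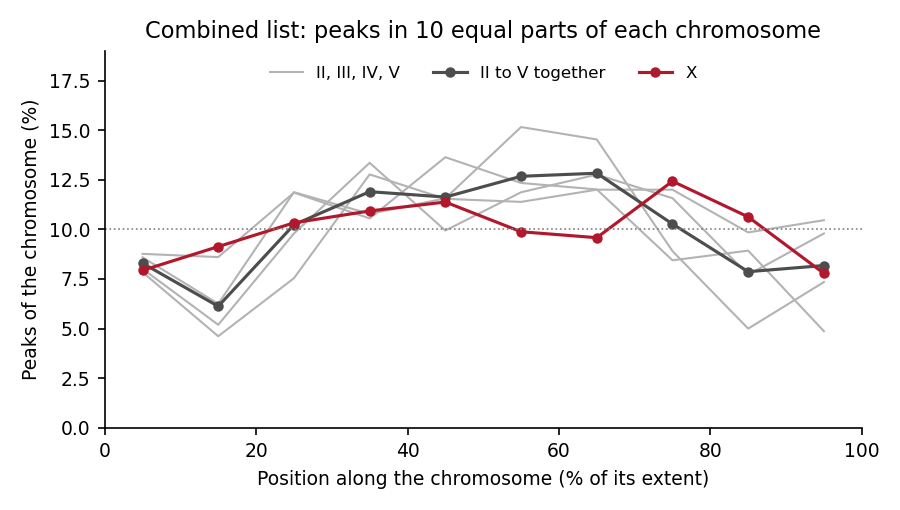
Percentage of each chromosome's combined peaks in 10 equal parts of its extent, for X (red), II to V together (dark grey) and II, III, IV and V (light grey). The dotted line marks an even spread of 10%. X stays between 7.78% and 12.4%, with its highest value from 70 to 80% of the extent, and II to V together reach 12.8% from 60 to 70%.

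Midpoints of neighbouring X peaks were a median of 16533 bp apart, while the medians of II, III, IV and V were 11524, 11059, 17355 and 17995 bp. A neighbour within 2 kb was present for 132 X peaks (19.8%) and for 24.2% of II to V peaks, a difference of -4.43 percentage points (-10.7 to 1.90, adjusted p = 0.290, n = 18 and 69 bins). These 132 formed 47 pairs, 6 groups of 3 and 5 groups of 4. Their median ratio of 2.65 was near the 2.68 of the 536 peaks with no such neighbour, and 43.2% against 42.4% were found in both replicates.

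The densest 20 kb window of X, from X 5467289 to 5484632, had 7 peaks with ratios of 1.68 to 3.21, of which 1 was found in both replicates. The window from X 6736196 to 6744768 had 6, of which 4 were found in both, and it held X 6741519 to 6742400, named above. Next came 4 windows of 5 peaks. From X 5811918 to 5821454, 1 of the 5 was found in both, from X 4960532 to 4972534 and from X 3755457 to 3769229 it was 2, and from X 14555568 to 14568907 all 5. Close spacing on X therefore came both with peaks found in each replicate list and with peaks that were not.

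Of the X peaks, 34 (5.09%) spanned under 50 bp, against 4.88% on II to V, a difference of 0.21 percentage points (-2.05 to 2.46, adjusted p = 0.934, n = 18 and 69 bins). The 34 had a median ratio of 4.40 from a median of 31 ChIP tags, and 4 of them were found in both replicates. The 634 wider X peaks had medians of 2.64 and 78 tags, and 280 were found in both.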

How the data were processed

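ELT-3-GFP ChIP-seq peaks of C. elegans embryos were analysed from 3 deposited lists, 1 per ChIP sample and 1 combined. Groups follow the sample titles and source names. The description fields have ChIP and input the other way round: those of the ChIP samples read input DNA, and the antibody stands in those of the input samples. Worms were crosslinked with 2% formaldehyde and 10% of the lysate was kept as input, per the labels' protocols. The q-value deposited by the authors is the only measurement per peak. Peaks were called with PeakSeq on WormBase WS180, per the file headers and source column. No source used here gives the aligner, the caller's settings or the way the lists were combined.

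Tag pairs were looked up with a relative tolerance of 1e-11, over totals of up to 3000 and then 20000 tags. Linear models were fitted to all combined peaks with terms for X, I and II to V, and errors clustered in 1 Mb bins, with the X bins less 1 as degrees of freedom. That choice and the scaling of the errors were revised, after simulated data gave too many calls and after first contrasts had been seen; it widened the intervals. The n beside a p counts bins, not samples: p-values measure spread along the chromosomes of these lists, and the labels do not say whether the samples came from separate cultures. Benjamini-Hochberg adjustment covered 11 measures, and 10 further contrasts separately; 0.05 was the threshold. A chromosome's extent is its highest peak end in any list. With 1 chromosome against 4, an exact one-sided permutation test over chromosomes cannot go below 0.2, so none is given.

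The peaks, measures and lists were chosen with earlier results of these data known. Positions named are the 15 first by probability in both replicates, the 8 of highest ratio from 100 ChIP tags, the 5 widest, the densest windows (3 by rule, with 3 more that tie with the last) and peaks missing from a list; the stretch of dense control tags and other positions were added after values were seen. No gene names or sequences are given at peaks, because no WS180 annotation or genome was used here. Tools were matplotlib 3.10.9, scipy 1.17.1, pandas 2.3.3 and numpy 2.4.6 under Python 3.11.15.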

Additional observations from a re-analysis of the deposited data

How the results depend on the processing

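Of 128 values under alternatives, 104 gave the same result, with the exceptions below. With chromosome I added, the X minus II to V differences missed the threshold for log2 width (0.16), log2 control tags per kb (0.094) and minus log10 probability (0.98). Log2 width also missed it without III (0.17), without IV (0.18) and without the stretch of dense control tags (0.18, added after the data were seen), and minus log10 probability without IV (0.99). The log2 ratio was -0.015 with control tags as covariate, and log2 width turned to -0.14 with ChIP tags as covariate. Counting every peak as independent, the central share (-6.48 points, also by Fisher's exact test) and the share with a near neighbour (-4.43) passed the threshold; the clustered model cannot test the central share, which its bins nearly fix. Other changes of sign did not pass the threshold. They were the share found in both replicates with midpoints within 100 bp (-0.80 points) and the share under 50 bp without V (-0.22). The replicate 1 share of tags changed sign with ends within 10 bp (-0.16) or 50 bp (-0.34). Without replicate 2, the share found in the other list (-0.12) and the share under 50 bp (-0.22) also changed sign. Without replicate 1 or 2, the differences ranged from -0.14 to -0.13 in log2 ratio, 0.20 to 0.26 in log2 width, 0.24 to 0.31 in log2 ChIP tags, 0.037 to 0.042 in log2 ChIP tags per kb, 0.16 to 0.18 in log2 control tags per kb and 1.04 to 1.32 in minus log10 probability. In percentage points they ranged from -0.12 to 0.71 for the share found in the other list, -7.62 to -6.44 for the central share, -4.29 to -2.26 for near neighbours and -0.22 to 0.17 for peaks under 50 bp. With a reciprocal overlap of 50% or midpoints within 100 bp, the X peaks found in both replicates were 38.5% and 37.6%, those of replicate 1 found in replicate 2 were 87.2% and 84.8%, and those of replicate 2 found in replicate 1 were 38.5% and 37.5%. The cause was not tested for any of these. No paired analysis was possible because the lists hold ChIP peaks alone and give no value per input sample. The GATA motif and nearest genes were not run, for want of a WS180 genome. Library totals are unknown, and peaks of few tags have the widest intervals.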
